A study of Homo sapiens with 6 samples.

Results

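ETS factors are transcription factors that share one DNA-binding domain, and 10 of them were followed here through RNA sequencing of the 83 cell line. The 10 were taken by name from the 21676 gene symbols of the count table: EHF, ELF3, ELF5 and SPDEF, which are largely restricted to epithelia, and ELF1, ETS1, ETS2, ETV6, ERF and ELK3, which many cell types express. All 10 had a row in the table, and 8 had enough counts to be tested. The submitters call 83 a SACC cell, which in this field usually stands for salivary adenoid cystic carcinoma. Both groups were cultures of this 1 line: 3 control libraries, labelled NC-1 to NC-3, and 3 libraries of cells overexpressing ApoD, labelled OE-1 to OE-3. ApoD is apolipoprotein D, a secreted carrier of small lipids. The labels do not state the vector, what the controls received, or whether the libraries of a group came from separate cultures or clones, and the p-values therefore rest on differences between libraries that could be technical repeats.

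An ETS domain binds DNA around a GGAA core, and many family members recognise nearly the same sites, so the factors present in a cell can compete for them. EHF, ELF3 and ELF5 form the ESE (epithelium-specific ETS) subfamily, which acts in the differentiation of glandular and other epithelia. SPDEF drives the secretory programme of mucus-producing and other glandular cells. ETS1 and ETS2 are activated through RAS and ERK signalling, ELF1 is a broad activator, and ETV6, ERF and ELK3 act mainly as repressors.

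The libraries held 37542568 to 40416964 counts. APOD had 2 to 9 counts in the controls and 528 to 628 with ApoD overexpression. Of 6 epithelial markers, EPCAM, KRT7, KRT8 and KRT18 were abundant in all 6 libraries. CDH1 stood at 67.5 to 81.9 CPM in controls and 28.1 to 35.0 CPM with ApoD overexpression. KRT19 was low, at 3.09 to 6.08 CPM and 0.444 to 1.12 CPM in the same order. Of 6 salivary acinar markers 3 were not listed, and the others summed to at most 0.421 CPM in any library. Of 4 adenoid cystic carcinoma markers, MYB and NFIB were detected and KIT and SOX10 were not listed. The groups also differed as libraries. Genes with a count numbered 18591 to 18685 in controls and 17378 to 17789 with ApoD overexpression, and mitochondrially encoded genes took 4.10% to 4.50% and 3.19% to 3.54% of the counts.

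The promoters of the listed factors differ in CpG content, and 4 are shown that were chosen with the expression changes known. EHF and ELF3, whose transcripts fell most, have few CG dinucleotides upstream of their start, whereas ELF1, which rose, and ERF, which did not pass the test, have many. The sequences are the 250 bases before the most upstream start listed for each gene in RefSeq (GRCh38.p14), written 5′ to 3′ on the gene's strand, with every CG in capitals. They lie at chr11:34624007-34624256 (plus strand) for EHF, chr1:202010337-202010586 (plus strand) for ELF3, chr13:41061387-41061636 (minus strand) for ELF1 and chr19:42255129-42255378 (minus strand) for ERF.
EHF: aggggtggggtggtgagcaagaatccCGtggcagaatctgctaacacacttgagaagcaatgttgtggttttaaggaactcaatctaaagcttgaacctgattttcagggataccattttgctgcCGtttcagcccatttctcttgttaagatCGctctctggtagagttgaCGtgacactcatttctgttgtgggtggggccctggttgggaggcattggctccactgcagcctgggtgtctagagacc
ELF3: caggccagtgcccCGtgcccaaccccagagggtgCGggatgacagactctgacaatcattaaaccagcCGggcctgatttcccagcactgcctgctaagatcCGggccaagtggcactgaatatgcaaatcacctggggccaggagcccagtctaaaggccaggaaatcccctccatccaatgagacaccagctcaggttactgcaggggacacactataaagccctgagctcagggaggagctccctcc
ELF1: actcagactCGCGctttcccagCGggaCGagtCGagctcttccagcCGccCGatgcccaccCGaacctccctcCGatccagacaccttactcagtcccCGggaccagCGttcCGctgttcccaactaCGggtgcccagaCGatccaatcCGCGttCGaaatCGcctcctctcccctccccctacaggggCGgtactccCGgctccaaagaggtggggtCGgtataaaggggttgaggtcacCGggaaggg
ERF: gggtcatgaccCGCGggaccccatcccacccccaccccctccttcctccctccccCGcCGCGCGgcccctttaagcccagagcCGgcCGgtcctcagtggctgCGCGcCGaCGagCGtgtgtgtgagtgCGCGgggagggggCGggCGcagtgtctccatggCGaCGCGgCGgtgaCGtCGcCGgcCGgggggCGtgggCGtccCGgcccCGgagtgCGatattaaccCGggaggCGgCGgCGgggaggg

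In these stretches EHF and ELF3 had 4 CG dinucleotides each, ELF1 had 22 and ERF 34. Promoters of 300 bases, 250 before to 50 after the start, were listed for 9 of the 10 factors, all but ETS1. The observed-to-expected CpG ratio was 0.41 at the upstream start of EHF and 0.17 at its other start, 0.27 for ELF3, 0.10 for ELF5 and 0.40 for SPDEF, against a median of 0.58 over the 35116 promoters in the table. At the most upstream start of the broadly expressed factors it was 0.89 for ELF1, 0.80 for ETS2, 0.93 for ETV6, 0.93 for ERF and 0.95 for ELK3. All 5 epithelial promoters lay below the median and these 5 above it, but a second start of ELK3 (0.44) and one of ELF1 (0.33) were also below it. ETS2, which also fell, was thus above the median, so a low ratio did not go with every fall. Which start the 83 cells use was not measured. 4 motifs were searched on both strands of the 300 bases. CAGGTG, the E-box bound by SNAI and ZEB repressors, was found once in ELF3, 120 bases before the start, once in ELF5, and once in the upstream promoter of ETS2. It occurs in 20.6% of all listed promoters. TATAAA, the TATA box, was found 34 bases before the ELF3 start and 29 bases before the upstream ELF1 start, and it occurs in 11.5% of promoters. CCGGAA, an extended ETS core, and TGANTCA, the AP-1 site, were found in none of the promoters of the 9 factors, and they occur in 17.2% and 7.71% of all promoters. A match is a run of letters and was not tested for binding.

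The comparison asks whether the ETS factors that a glandular cell uses changed when ApoD was overexpressed. The epithelial factors EHF and ELF3 fell to 9.80% and 14.4% of their control level, and the 6 broadly expressed factors moved by less than 1.5-fold. Levels are given as CPM, counts per 1000000 after TMM scaling of the libraries, and tests are edgeR's quasi-likelihood test with p adjusted by Benjamini-Hochberg over 14629 genes at a threshold of 0.05. Of the 8 tested factors 4 fell (EHF, ELF3, ETS2 and ETS1), 1 rose (ELF1) and 3 did not pass the test. Over all tested genes 48.8% were called, 24.6% lower and 24.2% higher with ApoD overexpression, so the number of calls among the 8 is no result about these factors. A fall of more than 4-fold was called for EHF and ELF3, a size reached by 4.46% of tested genes. The factors were chosen with earlier results of these data known, so this share is no test of the list. For 6 of the 8 the 2 groups were separated without overlap, as they were for 58.7% of all tested genes. The median log2 fold change of the 8 was −0.12, and that of all tested genes −0.02. With 1 library left out the number of factors that fell was 2 to 4: only EHF and ELF3 were still called lower without control replicate 2 or 3 or without ApoD overexpression replicate 1 or 3.

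**Figure D1:**
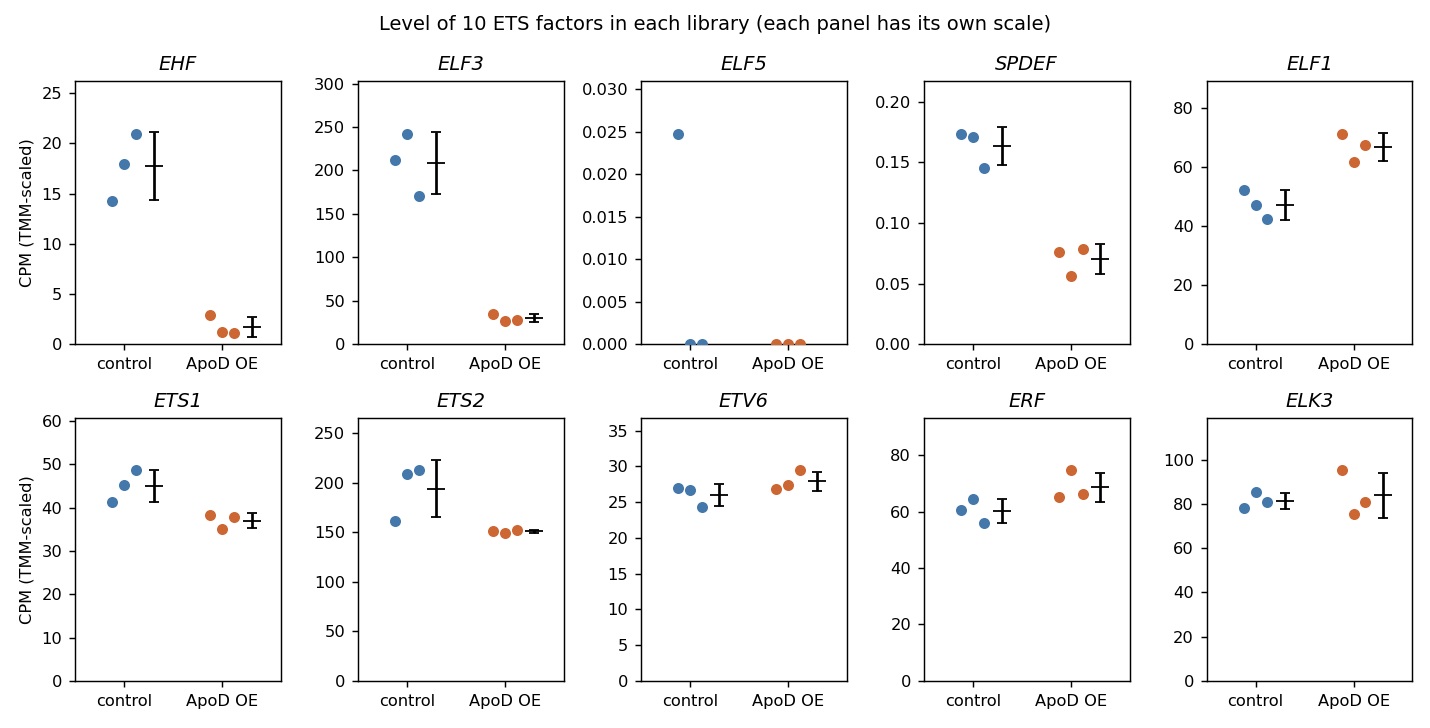
Level of each of the 10 ETS factors in CPM (y axis, own scale per panel, starting at 0) in the 3 control and 3 ApoD overexpression (ApoD OE) libraries; points are libraries, and the bar beside them is mean ± SD (not drawn for ELF5, which had 1 count in all). EHF and ELF3 show the widest separation, from means of 17.7 to 1.72 CPM and from 208 to 30.1 CPM.

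ELF3 was the most abundant ETS factor of the control cells. It controls terminal differentiation in surface and glandular epithelia. It had 8547, 9925 and 7078 counts in control replicates 1, 2 and 3, and 1381, 965 and 1072 counts with ApoD overexpression. Every ApoD overexpression library lay below every control, the lowest control standing at 170.9 CPM and the highest ApoD overexpression library at 35.1 CPM. The level fell from 208 ± 35.8 to 30.1 ± 4.35 CPM (SD, n = 3), which is −2.79 ± 0.14 (SE) on the log2 scale (edgeR adjusted p = 1.48e-07). In bulk RNA, fewer cells that express ELF3 and less ELF3 transcript per cell cannot be told apart, and this holds for EHF too. ELF3-AS1 is a long noncoding RNA whose RefSeq span ends just upstream of ELF3 without overlapping it. It had 203, 205 and 167 counts in controls and 30, 30 and 36 with ApoD overexpression, which is −2.46 ± 0.25 (SE) on the log2 scale (edgeR adjusted p = 1.64e-05). The strand setting of the counting is not given, so reads that run from one into the other could not be assigned.

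EHF, the closest relative of ELF3 on the list, regulates epithelial differentiation genes in glandular tissue. Its counts were 574, 737 and 868 in the controls and 113, 42 and 43 with ApoD overexpression. The groups were again far apart, and ApoD overexpression replicate 1 stood above the other two. The level fell from 17.7 ± 3.38 to 1.72 ± 0.992 CPM (SD, n = 3), a change of −3.35 ± 0.31 (SE) in log2 units, with an edgeR adjusted p of 7.68e-06. Without ApoD overexpression replicate 1 the change was −3.92, and with the other libraries left out in turn it was −3.48 to −3.11. Of all 14629 changes, ordered from the most negative, that of EHF stood at place 163 and that of ELF3 at place 293. Within the controls their orders differed: control replicate 3 had the highest EHF level, 20.96 CPM, and the lowest ELF3 level, 170.9 CPM.

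The other 2 epithelial factors were barely detected in either group. ELF5, which directs secretory cell fate in the mammary gland, had 1 count in control replicate 1 and 0 in the 5 other libraries, below the floor of 3 counts, so no fold is given. SPDEF had 7, 7 and 6 counts in controls and 3, 2 and 3 with ApoD overexpression, too few to be tested. All 3 controls were above all 3 ApoD overexpression libraries. The ratio of summed counts per library total, control over ApoD overexpression, was 2.50 with a 95% exact interval of 1.06 to 6.56, which covers counting error only. Genes of low mean count together took 0.374% to 0.446% of the counts in controls and 0.237% to 0.262% with ApoD overexpression. A lower share was thus not particular to SPDEF. The ESE subfamily of the control cells was almost entirely ELF3, at 65.3 FPKM (counts per length and depth), with EHF at 2.46 FPKM.

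ELF1, an activator expressed in most tissues and an ETS factor of another subfamily than its name relative ELF3, was the listed factor that rose. It had 2105, 1927 and 1747 counts in controls and 2802, 2187 and 2582 with ApoD overexpression. On the TMM scale the controls lay between 42.2 and 52.2 CPM and the ApoD overexpression libraries between 61.6 and 71.2 CPM, without overlap. The mean rose from 47.1 ± 4.99 to 66.7 ± 4.83 CPM (SD, n = 3), a change of 0.50 ± 0.11 (SE) in log2 units, with an edgeR adjusted p of 0.00202. The call was made in all 6 fits with 1 library left out, and it was lost in a test against a 1.5-fold change.

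ETS1 and ETS2, the RAS-responsive founding members of the family, fell slightly. ETS2 had 6504, 8540 and 8791 counts in controls and 5939, 5300 and 5848 with ApoD overexpression. Control replicate 1, at 161 CPM, lay close to the ApoD overexpression libraries at 149 to 153 CPM, and the other controls were at 208 and 212 CPM. The mean moved from 194 ± 28.5 to 151 ± 1.70 CPM (SD, n = 3), a change of −0.36 ± 0.11 (SE) in log2 units, with an edgeR adjusted p of 0.0154. ETS1 had 1669, 1849 and 2013 counts in controls and 1504, 1242 and 1449 with ApoD overexpression. It moved from 45.1 ± 3.62 to 37.0 ± 1.76 CPM (SD, n = 3), a change of −0.28 ± 0.10 (SE) in log2 units, with an edgeR adjusted p of 0.0340. Control replicate 1 was the lowest control for ETS1 too. Neither call held with every library left out in turn. ETS1 missed the threshold in 5 of the 6 fits with 1 library left out, all but the one without control replicate 1, and ETS2 in 4 of them, with adjusted p up to 0.165 and 0.0865.

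The repressors ETV6, ERF and ELK3 did not pass the test. ETV6, a repressor known from leukaemia fusions, had 1090, 1096 and 1004 counts in controls and 1054, 975 and 1128 with ApoD overexpression (0.10 ± 0.10 SE in log2 units; edgeR adjusted p = 0.448). ELK3, a ternary complex factor that works with SRF, had 3159, 3494 and 3345 counts in controls and 3750, 2687 and 3096 with ApoD overexpression (0.04 ± 0.10 SE, adjusted p = 0.755 by edgeR). For both the groups overlapped, and the sign of the change turned with scaling by library totals, to −0.02 and −0.07. ERF, a repressor that ERK moves out of the nucleus, had 2436, 2638 and 2320 counts in controls and 2561, 2649 and 2534 with ApoD overexpression. Its TMM-scaled libraries did not overlap, at 56.0 to 64.4 and 65.0 to 74.6 CPM, but the change of 0.19 ± 0.10 (SE) missed the threshold (edgeR adjusted p = 0.133).

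**Figure D2:**
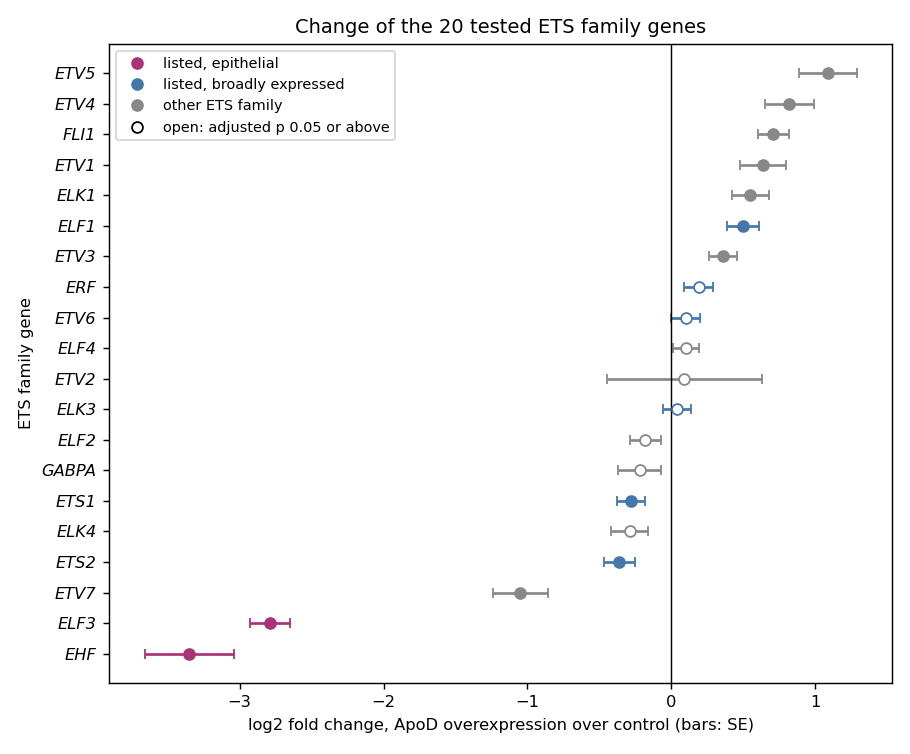
Log2 fold change, ApoD overexpression over control (x axis; bars are SE), of the 20 ETS family genes that were tested (y axis), with open points for an adjusted p of 0.05 or above. EHF at −3.35 and ELF3 at −2.79 stand apart from the other 18, which run from −1.05 for ETV7 to 1.09 for ETV5.

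The human genome encodes 18 further ETS factors, of which 17 were in the table and 12 were tested. Of these 12, 6 rose and 1 fell, beside 24.2% higher and 24.6% lower over all tested genes, and the median log2 fold change was 0.23 beside −0.02. The total of 7 calls is near the 48.8% called over all genes and is no result about the family. ETV5, ETV4 and ETV1, the PEA3 subfamily whose transcription follows ERK signalling, rose by 1.09 ± 0.20, 0.82 ± 0.17 and 0.64 ± 0.16 (SE). ETV5 had 459, 631 and 969 counts in controls and 1368, 1314 and 1353 with ApoD overexpression, so the controls were spread and the other group was tight. FLI1, an ERG subfamily factor best known in blood and endothelial cells, rose from 16.5 ± 1.36 to 27.1 ± 1.46 CPM (SD, n = 3), a change of 0.71 ± 0.11 (SE) in log2 units, with an edgeR adjusted p of 0.000298. ELK1, an SRF partner, and ETV3, a relative of ERF, rose by 0.55 ± 0.13 and 0.36 ± 0.10. ETV7, a relative of ETV6, was the one that fell, from 6.19 ± 0.501 to 2.996 ± 0.131 CPM. ELF4, ELF2, GABPA, ELK4 and ETV2 did not pass, with changes between −0.29 and 0.10. ELF4 and ETV2 changed sign with library totals, to −0.01 and −0.03, and under that scaling ELF2 and ELK4 were called lower, which made 3 lower calls in this group. ELK4 was also called lower without control replicate 1 (adjusted p = 0.0171, edgeR) or ApoD overexpression replicate 1 (0.0430), as was GABPA without the latter (0.0399), and ETV3 lost its call without control replicate 2 (0.0542) and in 6 of 16 alternatives in all. ERG, ETV3L, SPI1, SPIB and SPIC had at most 3 counts in any library, and FEV was not listed.

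Levels of different genes can be set beside each other only per length, for which the deposited FPKM values were used. In controls ELF3 stood first of the ETS family at 65.3 ± 10.3 FPKM (SD, n = 3). ETS2 followed at 27.3 ± 4.42 FPKM, then ERF at 20.1 ± 1.14, ELK3 at 19.4 ± 0.967 and ELF4 at 17.97 ± 0.968 FPKM. ELF3 did not overlap with ETS2, nor ETS2 with ERF, while ERF overlapped with ELK3 and ELK3 with ELF4. ETS2 ran from 22.2 to 30.5 FPKM across the controls, and the highest ERF control stood at 21.4 FPKM. With ApoD overexpression ERF stood first by mean at 21.1 ± 1.33 FPKM. ELF3 stood at place 8 with 8.71 ± 1.39 FPKM, overlapping with ETV5 at 8.39 ± 0.161 FPKM. ERF did not overlap with ETS2, but it was not first in every library. In ApoD overexpression replicate 1 ELK3 was at 21.2 FPKM and ERF at 20.3 FPKM. Between ERF and ELF3, each factor from ETS2 down to ETV4 overlapped with the next in order. ELF1, the last before ELF3, did not overlap with ELF3. Among all tested genes ELF3 moved from percentile 93.6 of mean FPKM to percentile 62.8, and EHF from percentile 35.1 to percentile 12.9. ETS2, ERF and ELK3 were between percentiles 77.5 and 84.1 in both groups.

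The make-up of the ETS transcript pool, the summed FPKM of the 27 listed family genes, changed accordingly. The pool was 219, 242 and 225 FPKM in controls and 181, 172 and 174 FPKM with ApoD overexpression. The ESE subfamily held 30.8%, 32.3% and 25.7% of it in controls and 5.91%, 4.595% and 4.74% with ApoD overexpression. Without ELF3 the pool was 163 ± 8.98 FPKM in controls and 167 ± 3.14 FPKM with ApoD overexpression (SD, n = 3). The groups overlapped on this scale. FPKM is scaled by library totals, without the TMM factors of 1.023 to 1.066 in controls and 0.9463 to 0.9746 with ApoD overexpression. Those factors would lower the control sums and raise the others, so the overlap does not show an unchanged rest of the pool. The PEA3 subfamily held 6.70% ± 2.14 and then 14.75% ± 1.14 of the pool. The ETS subfamily, ETS1 and ETS2, held 15.3% ± 1.98 and 14.5% ± 0.287, which overlapped. Within each library the FPKM of ELF3 was 2.94, 2.60 and 1.80 times that of ETS2 in controls and 0.520, 0.407 and 0.410 times with ApoD overexpression. These are shares of RNA, and a fall in one member raises the share of the others.

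**Figure D3:**
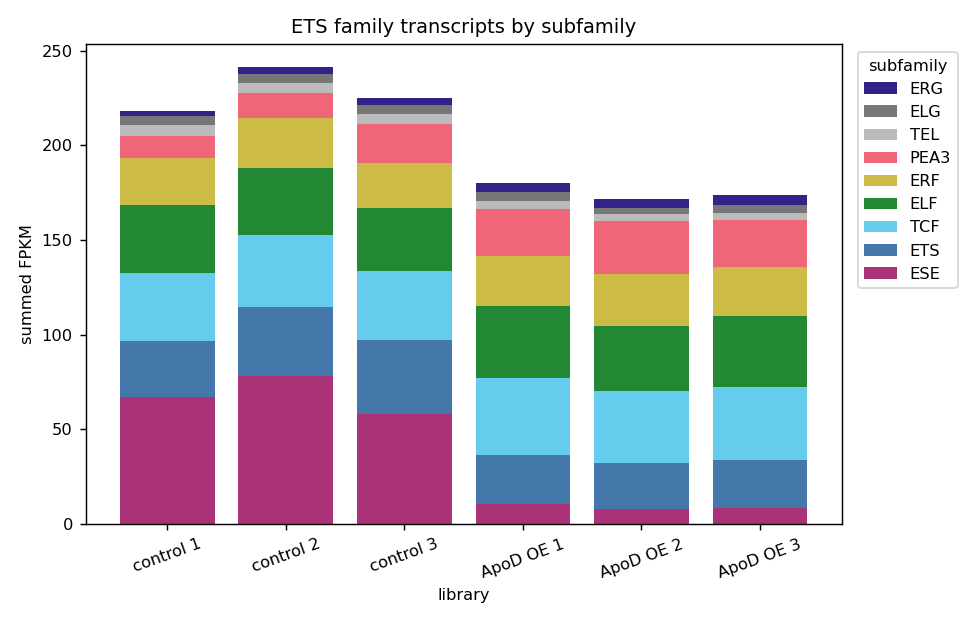
Summed FPKM (y axis) of the ETS family in each of the 6 libraries (x axis), stacked by subfamily; SPDEF, ETV2 and the SPI genes, together under 0.3 FPKM, are not drawn. The ESE block shrinks from 57.9 to 78.0 FPKM in controls to 7.90 to 10.7 FPKM with ApoD overexpression, while the PEA3 block is taller in all 3 ApoD overexpression libraries.

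The neighbours of the listed factors did not move as blocks. EHF and ELF5 lie next to each other in RefSeq. On the EHF side the next protein-coding genes of the count table were APIP, with a change of 0.16 ± 0.13 (SE, edgeR adjusted p = 0.334), and PDHX, which rose by 0.36 ± 0.10. Beyond ELF5 lies CAT, which encodes catalase and fell, with a change of −0.92 ± 0.10. Beside ELF3, TIMM17A rose by 0.85 ± 0.10, while RNPEP fell, with a change of −0.36 ± 0.09. GPR37L1, the next protein-coding gene after ELF3, fell from 50, 63 and 35 counts in controls to 0, 4 and 8 counts (−3.47 ± 0.70 SE in log2 units; edgeR adjusted p = 0.00162). ETS1 and FLI1 are adjacent and moved in opposite directions. BCL2L14, beside ETV6, had 27, 38 and 10 counts in controls and 0, 0 and 1 with ApoD overexpression. ERG, next to ETS2, had at most 1 count in any library.

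Of 22 genes reported elsewhere as regulated by EHF, ELF3, ELF5 or SPDEF 16 were in the table and 13 were tested. Of these 8 fell and 2 rose, beside 24.6% lower and 24.2% higher over all tested genes, with a median log2 fold change of −1.29 beside −0.02 for all tested genes. AGR2, CLDN7, CDH1, LCN2 and SNAI2 were known to change in these data when the list was drawn up, so the count is no independent evidence of a direction. AGR2, a protein disulfide isomerase of mucous cells tied to SPDEF, had 527, 702 and 496 counts in controls and 37, 6 and 14 with ApoD overexpression (−4.81 ± 0.38 SE in log2 units; edgeR adjusted p = 2.97e-06). Without ApoD overexpression replicate 1 the change of AGR2 was −5.66. MMP13, a collagenase, had 516, 1003 and 716 counts in controls and 57, 48 and 97 with ApoD overexpression, a change of −3.35 ± 0.28. LCN2, a secreted lipocalin whose promoter ELF3 is reported to bind, had 332, 422 and 397 counts in controls and 55, 37 and 23 with ApoD overexpression, a change of −3.20 ± 0.27. The gel-forming mucin MUC5B fell too, with a change of −3.12 ± 0.39, from 119 to 186 counts in the controls to 9 to 26. The members that rose were SNAI2, by 1.36 ± 0.11, and TGFBR2, by 0.37 ± 0.08. SNAI2 is an EMT factor that ELF5 is reported to repress, and ELF5 itself had at most 1 count in any library. ERBB2, KRT8 and CREB3L1 did not pass, SPRR2A, SPRR1B and TGM3 had at most 8 counts in any library, and TFF3, FOXA3, ERN2, NOS2 and the milk protein genes CSN2 and LALBA were not listed.

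Genes reported as regulated by ETS1 or ETS2 went both ways. Of 11 genes 8 were tested, and 3 fell and 2 rose, beside 24.6% lower and 24.2% higher over all tested genes, with a median of 0.01 beside −0.02. The interstitial collagenase MMP1 had 2088, 3464 and 2349 counts in controls and 449, 424 and 431 with ApoD overexpression, a change of −2.48 ± 0.17 (SE) in log2 units with an edgeR adjusted p of 1.15e-06. The integrin chain ITGB3 had 18, 47 and 105 counts in controls and 4, 8 and 4 with ApoD overexpression, a change of −3.25 ± 0.69. TNC, a matrix glycoprotein, and TIMP1, a metalloproteinase inhibitor, rose by 1.76 ± 0.24 and 0.76 ± 0.10. The controls were spread for ITGB3, and without control replicate 3 its change was −2.44.

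Of 11 targets that ELK factors share with SRF 10 were tested, and 6 fell and 2 rose, beside 24.6% lower and 24.2% higher over all tested genes. Their median was −0.40 beside −0.02 for all tested genes, and with 1 library left out 4 to 6 fell. The immediate early genes EGR1 and FOS fell, with changes of −2.36 ± 0.25 and −1.22 ± 0.27 (SE). EGR1 had 187, 229 and 206 counts in controls and 47, 28 and 37 with ApoD overexpression, without overlap. EGR3 fell, with a change of −1.72 ± 0.59, from 19 to 27 counts to 2 to 9. The call for EGR3 was lost in 5 of the 6 fits with 1 library left out (without any one control, or without ApoD overexpression replicate 1 or 2). SRF itself and MCL1, which encodes a survival protein, rose by 0.44 ± 0.11 and 0.45 ± 0.08. Of the ELK factors ELK1 rose, and ELK3 and ELK4 did not pass. Whether they have a part in the changes of these genes was not tested.

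Among 13 kinases, co-factors and other proteins reported to act on ETS factors, all tested, 6 rose and 1 fell, with a median of 0.28 beside −0.02 for all tested genes. Of all tested genes 48.8% were called, so the 7 calls are no result about this list. MAPK3, which encodes the kinase ERK1, had 3598, 4110 and 4111 counts in controls and 2133, 1852 and 1816 with ApoD overexpression, a change of −0.91 ± 0.10 (SE) in log2 units with an edgeR adjusted p of 1.91e-05. The acetyltransferase co-activator CREBBP rose from 61.9 ± 15.6 to 111 ± 13.9 CPM (SD, n = 3), and the exportin XPO1 rose by 0.50 ± 0.11.

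**Figure D4:**
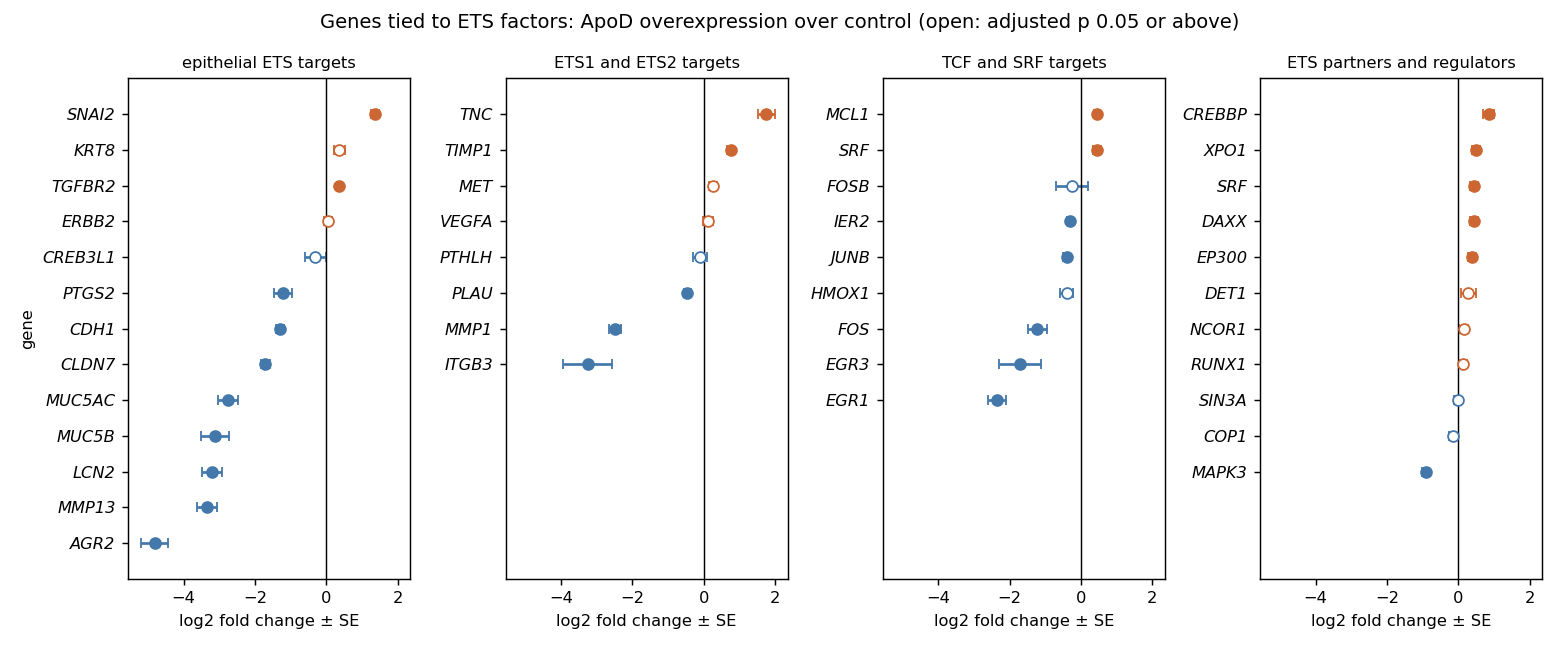
Log2 fold change ± SE (x axis) of tested genes (y axis) in 4 lists tied to ETS factors, one panel per list, with open points for an adjusted p of 0.05 or above, blue for negative and orange for positive changes. The epithelial ETS targets reach from −4.81 for AGR2 to 1.36 for SNAI2, and the partners and regulators lie between −0.91 and 0.85.

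Markers of other cell types were examined beside these changes. Of 6 leukocyte markers only CD68, a lysosomal protein that epithelial cells also make, was tested, and it rose by 0.57 ± 0.21. The list summed to 15.5 to 32.7 CPM in controls and 36.7 to 39.0 CPM with ApoD overexpression, CD3E was not listed and PTPRC had at most 12 counts in any library. Of 7 fibroblast markers, summing to 26.9 to 32.6 CPM in controls and 9.86 to 13.8 CPM with ApoD overexpression, 2 were tested and both fell (COL1A1 and COL3A1), while COL1A2, DCN and LUM had at most 1 count per library and PDGFRA was not listed. Of 5 endothelial markers 3 were tested and all 3 fell, their sum with the rest of the list running from 8.11 to 13.4 CPM in controls and 1.35 to 2.30 CPM with ApoD overexpression, and KDR was not listed. Of 5 myoepithelial markers, summing to 149 to 226 CPM and 82.6 to 94.2 CPM in the same order, 3 were tested and all 3 fell. The contractile markers CNN1 and MYH11 had at most 11 and 5 counts in any library, so the sum rests on the 3 tested members. Over all tested genes 24.6% were called lower and 24.2% higher, and with so few members tested these calls are no result about the lists. COL3A1, with 161, 128 and 67 counts in controls and 6, 4 and 4 with ApoD overexpression, passed the count filter through the controls alone. The same holds for a member of the endothelial list, and for such genes only a fall could be called. The epithelial markers EPCAM, CDH1 and KRT19 fell, with changes of −0.30 ± 0.09, −1.29 ± 0.11 and −2.46 ± 0.36 (SE), KRT7 rose by 0.48 ± 0.14, and KRT8 and KRT18 did not pass. The part that the lower number of detected genes and these markers have in the falls of EHF and ELF3 was not tested. With each library's abundance trend removed, the changes of EHF and ELF3 were −3.08 and −2.93.

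**Figure D5:**
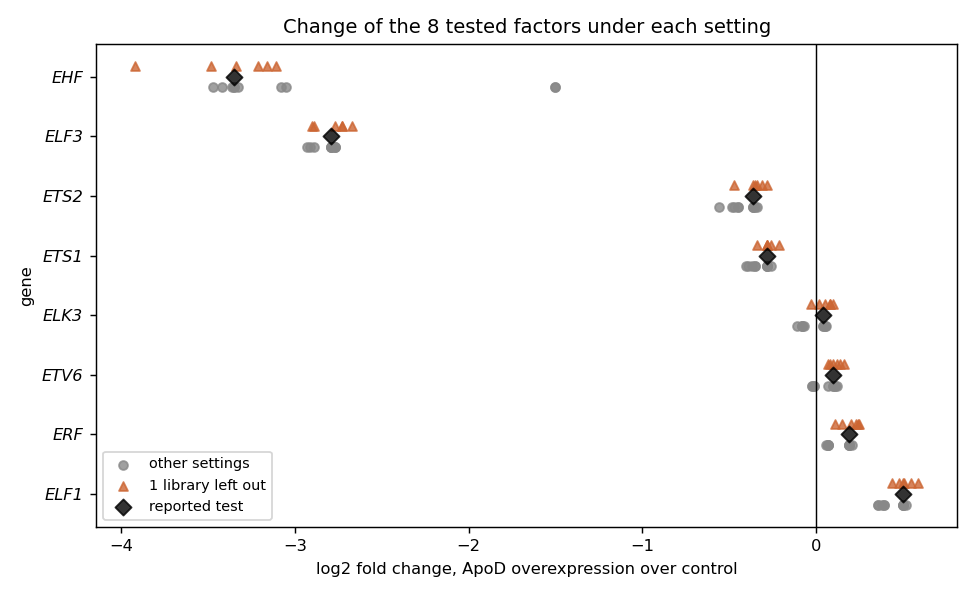
Log2 fold change, ApoD overexpression over control (x axis), of the 8 tested listed factors (y axis) under the reported test (diamonds), with 1 library left out (triangles) and under other settings (circles). EHF and ELF3 stay negative throughout, with EHF at −1.50 on log2(FPKM + 1), a scale that compresses low values, and ELK3 and ETV6 fall on both sides of 0.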

How the data were processed

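The members and all gene lists were chosen with earlier results of these data known. Per the file headers, the authors deposited raw read counts of 21676 symbols across 6 libraries, with an FPKM for each. All 108650 deposited FPKM values above 0 could be recomputed from the counts, the library totals and 1 length per gene (tolerance 1e-06). For the aligner, the counter, the strand setting and the build, nothing is given in the sources used here.

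Counts were tested with edgeR 4.0.16 (R 4.3.3; quasi-likelihood F test, two-sided, group only), TMM scaling and filterByExpr with a minimum count of 10, leaving 14629 genes. P-values were adjusted by Benjamini-Hochberg, and each SE is the log2 fold change divided by the square root of F. The code was tested on simulated data. Total counts of 37542568 to 40416964 leave counting error small except for genes near the floor of 3 counts in a group. No pair of libraries agreed within sampling noise (chi-square per degree of freedom at least 11.6). Same-numbered libraries did not deviate together (r = −0.115, −0.006 and −0.039), so they were not paired.

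Named genes are the 10 factors, every other tested ETS gene, and up to 4 called members per target or partner list by size of change; any other gene with a value was named after its values were seen. Some genes of the lists are counted but not reported here by name. Promoters came from RefSeq (GRCh38.p14). Alternatives were DESeq2 1.42.0 and its size factors, library totals, loess abundance offsets, no filter, the replicate block, each library left out, glmTreat at 1.5-fold, and limma 3.58.1 on log2(FPKM + 1) with and without a filter or log2(FPKM + 0.1).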

Additional observations from a re-analysis of the deposited data

How the results depend on the processing

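EHF, ELF3, ETV5, ETV7, AGR2, LCN2, MMP13, MUC5B, MMP1, TNC, FOS, EGR1 and MAPK3 kept their direction and their call under every alternative that gave a value. Over all named genes, 496 alternative values kept both, 45 lost the call, 8 gained one and 19 changed sign. None of those 19 was a call: ETV6 (−0.02 with library totals and on log2(FPKM + 0.1), −0.01 on log2(FPKM + 1) with and without the filter), ELK3 (−0.07 with library totals, −0.11 with the abundance trend removed, −0.08 on all 3 FPKM fits, −0.03 without ApoD overexpression replicate 1), ELF4 (−0.01 with library totals and on all 3 FPKM fits, −0.07 with the trend removed) and ETV2 (−0.03 with library totals, −0.10 without control replicate 1, −0.11 without ApoD overexpression replicate 2 and up to 0.26 with another library left out, 0.0 on unfiltered FPKM). The test against a 1.5-fold change left 0 listed factors higher and 2 lower, and over all genes 545 higher and 1430 lower. Unfiltered FPKM left 2317 genes higher. With 1 library left out, 2 to 4 listed factors were lower and 2690 to 3712 genes higher. Library totals moved the median change of all genes from −0.02 to −0.13 and the share of calls that were higher from 49.6% to 36.8%, and 37.0% were higher on unfiltered FPKM and 27.6% with the 1.5-fold test. With the replicate block 1 listed factor rose and 3 fell, with ETS1 losing its call (edgeR adjusted p = 0.0782), and over all genes 3088 rose and 3260 fell. ELF5 and SPDEF are limited by depth. SPDEF was not called without the count filter in edgeR but was called lower on unfiltered FPKM, where genes near 0 have little spread. The causes were not tested.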
